A study of Homo sapiens with 6 samples.

Results

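The SLC25 mitochondrial carriers were examined in HK-2 cells, a line of human proximal tubular epithelial cells, transfected with a plasmid for overexpression of the circular RNA circAASS or with empty vector. Members were taken by name, as every gene of the deposited expression table called SLC25A followed by a number, which gave 46 of 35035 genes. The circAASS group had 3 libraries and the vector group had 3, and all 6 came from cells of wild-type genotype that had spent 24 h in 1% oxygen and 12 h back in oxygen. Cells not exposed to low oxygen were not analysed here, so each difference is between plasmids after hypoxia and reoxygenation. The labels do not say whether the 3 repeats of a group were separate cultures or transfections, and p-values therefore measure the spread between these libraries, which may be technical.

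SLC25 proteins form the family that moves metabolites across the inner mitochondrial membrane. Most are small proteins of the inner membrane encoded in the nucleus, made in the cytosol and inserted after import, and most exchange 1 substrate for another. They carry ADP, ATP and phosphate for oxidative phosphorylation, the di- and tricarboxylates of the citric acid cycle, amino acids, nucleotides, cofactors, iron and glutathione, and some relatives sit in the outer membrane or in peroxisomes. Proximal tubule cells depend on mitochondrial ATP for solute reabsorption, and the malate-aspartate shuttle, the carnitine shuttle and the export of citrate all pass through these carriers.

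Library totals were 47966937, 58179563 and 47384879 reads in circAASS and 45148425, 51014541 and 52470055 reads in vector, where each mate counts as a read. Mitochondrially encoded genes held 9.47%, 10.08% and 9.11% of reads in circAASS and 9.06%, 8.88% and 8.96% in vector. AASS, the gene whose symbol circAASS carries, was at 0.880 ± 0.0842 RPKM in circAASS and 1.23 ± 0.141 RPKM in vector (SD, n = 3 each), a log2 difference of -0.36 with adjusted p = 0.0723; the circular RNA itself has no row of its own and was not analysed here. RN7SK, a small nuclear RNA without a poly(A) tail, was at 55.6, 135 and 190 RPKM in circAASS and 44.7, 34.1 and 37.0 RPKM in vector, a log2 difference of 1.63. Of other non-coding RNAs, RN7SL1 (1.02) and RN7SL2 (1.56) were called higher, and NEAT1 (-1.04) and MALAT1 (-0.44) lower, in circAASS under all 14 other settings. Their part in the results below was not tested. Of 11 markers of the proximal tubule, 4 averaged at least 1 RPKM (SLC5A2, GGT1, CDH6 and PAX8). LRP2, CUBN, AQP1, SLC34A1, ANPEP and ALPL were near 0, and PAX2 averaged 0.603 RPKM. Genes on the opposite strand cover 40.7% of the exon bases of SLC5A2, so its level is uncertain. Summed proximal tubule markers ranged over 53.9 to 60.2 RPKM in circAASS and 51.6 to 52.6 in vector. CDH6 (log2 difference -1.37), SLC5A2 (-0.92) and GGT1 (-0.30) were lower and PAX8 (0.84) higher in circAASS. PAX8 alone held 39.8 to 45.1 RPKM of the sums in circAASS and 24.2 to 26.4 in vector, so the higher sums in circAASS rest on PAX8. Markers of other nephron segments summed to 0.0991 to 0.114 RPKM in circAASS and 0.0828 to 0.124 in vector, and endothelial markers to 0.0645 to 0.0917 RPKM in circAASS and 0.0686 to 0.0993 in vector. Fibroblast markers summed to 4.17 to 4.49 RPKM in circAASS and 3.69 to 4.45 in vector. Leukocyte markers summed to 78.6 to 101 RPKM in circAASS and 102 to 106 in vector, nearly all from CD68, a lysosomal protein whose exons are 85.8% covered by other genes. In bulk libraries, fewer cells with a transcript and less transcript per cell cannot be told apart.

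Levels within the family spanned from abundant housekeeping carriers to genes at the limit of detection. RPKM scale reads to library size and to gene length, here all exon bases of a gene, so the order of genes depends on that length. SLC25A3 had 7775 to 10828 reads per library on 8896 exon bases. SLC25A6 had 4144 to 5741 reads on 2164 exon bases, so by reads SLC25A3 stands above SLC25A6. Averaged over the 6 libraries, 4 members reached at least 10 RPKM, 27 lay between 1 and 10 RPKM and 15 lay under 1 RPKM. The ADP/ATP carrier SLC25A6 was highest by RPKM at 43.5, followed by SLC25A5 at 29.9 and the phosphate carrier SLC25A3 at 20. SLC25A32 at 10.6 and SLC25A1 at 9.93 RPKM came next. In circAASS the levels of SLC25A6 and SLC25A5 lay closer together (40.4 to 45.6 and 30.1 to 37.1 RPKM) than in vector (42.4 to 43.8 and 24.5 to 26.8 RPKM). The order of the 3 carriers of highest RPKM was the same in each library. SLC25A32 and SLC25A1 exchanged places: SLC25A32 was the higher of these in every circAASS library and SLC25A1 the higher in every vector library. The deposited RPKM of all 46 members added up to 205, 218 and 222 in circAASS and 211, 211 and 218 in vector. These unscaled sums overlapped between the groups. The trimmed-mean scaling used for the calls below divides by 0.9544 to 0.9958 in circAASS and by 1.0165 to 1.0434 in vector. It raises circAASS relative to vector, so the overlap holds for the deposited values only. SLC25A3, SLC25A5 and SLC25A6 made up 45.6 ± 1.80% of the family's sum in circAASS and 41.4 ± 0.653% in vector (SD, n = 3 each).

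**Figure D1:**
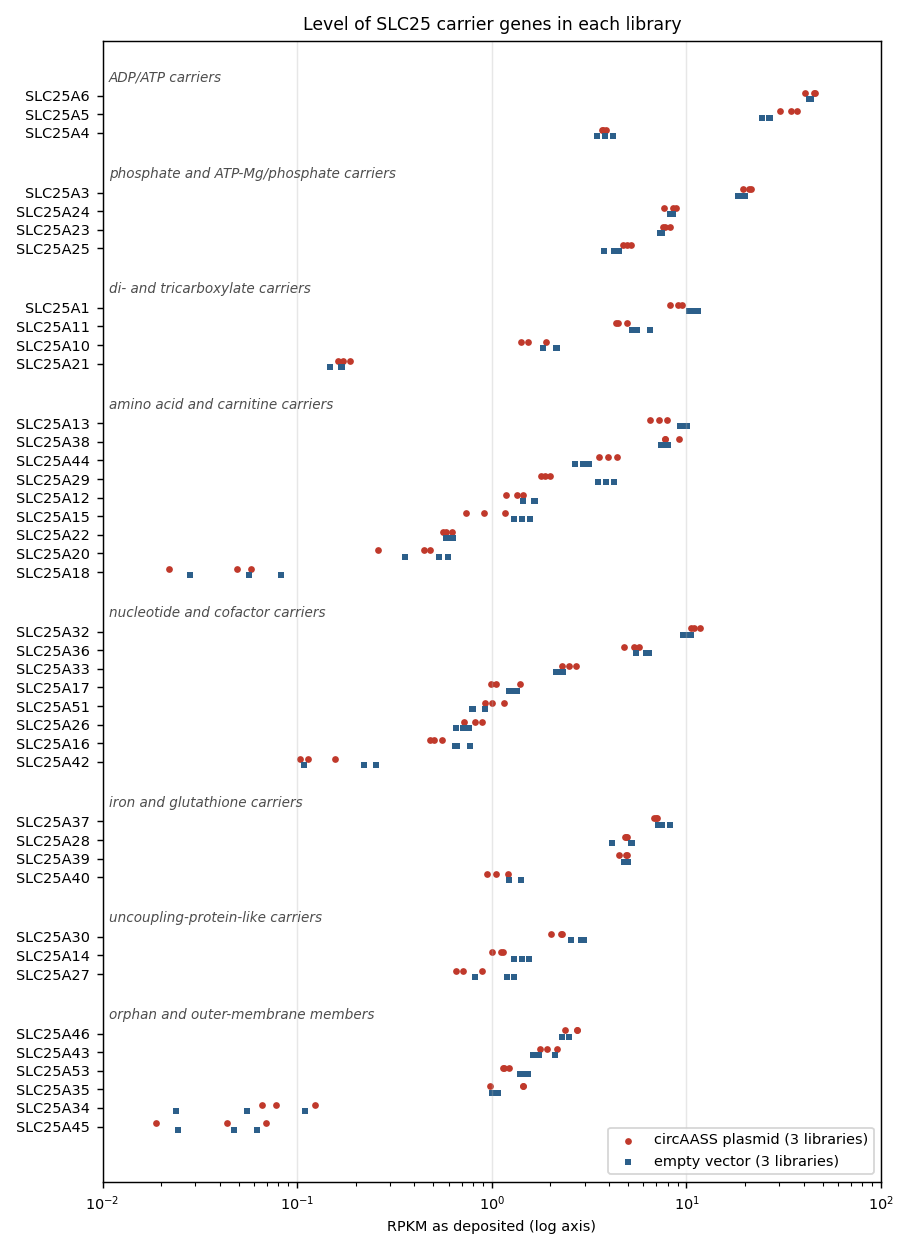
Deposited RPKM of 41 tested members on a log axis, grouped by role; circles are the 3 circAASS libraries and squares the 3 vector libraries. SLC25A6, SLC25A5 and SLC25A3 stand highest, averaging 43.5, 29.9 and 20 RPKM over the 6 libraries.

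Transcripts of 8 carriers differed between the plasmids, and those differences were mostly small. SLC25A5, SLC25A44, SLC25A25, SLC25A32 and SLC25A3 were higher in circAASS, and SLC25A29, SLC25A13 and SLC25A1 were lower. The comparison used limma on log2(RPKM + 0.1), with RPKM first divided by the trimmed-mean factor of each library. This scale understates the change of low genes. Benjamini-Hochberg adjustment ran over all 19409 genes tested, with a threshold of 0.05. Printed RPKM are as deposited, without these factors, so a log2 difference can depart from the RPKM beside it, even in sign. Of the 46 members, 42 passed the filter on low reads and were tested: 5 were higher, 3 were lower and 34 were not called. That is 19.0% of the tested members, against 32.3% of all tested genes (16.3% higher and 15.9% lower), a difference that was not tested; with no filter on low values the shares were 13% of members and 12.6% of genes. The median log2 difference was 0.04 over the members and -0.01 over all tested genes, with 23 members above 0 and 19 below. In deposited RPKM, 6 of the 42 tested members had every circAASS library above every vector library, and 11 had every one below. Over all 19409 tested genes these numbers were 3318 and 5876, so groups without overlap were common. Only SLC25A29 changed by close to a log2 difference of 1, at -0.92. Another 7 members missed the threshold with adjusted p under 0.1: SLC25A11 (0.0573), SLC25A15 (0.0630), SLC25A30 (0.0634), SLC25A23 (0.0692), SLC25A14 (0.0845), SLC25A38 (0.0913) and SLC25A51 (0.0976).

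The split of calls between higher and lower moved with the scaling of the libraries. With trimmed-mean scaling, 50.6% of all calls were higher in circAASS; scaled by library size alone, 34.9% were, with 2152 genes higher (11.1%) and 4019 lower (20.7%). Under library size alone, 2 members were higher (SLC25A5 and SLC25A44) and 7 were lower (SLC25A1, SLC25A11, SLC25A13, SLC25A14, SLC25A15, SLC25A29 and SLC25A30). SLC25A29, SLC25A13, SLC25A5 and SLC25A44 kept their calls under all 14 other settings tried, which included leaving out each library in turn.

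**Figure D2:**
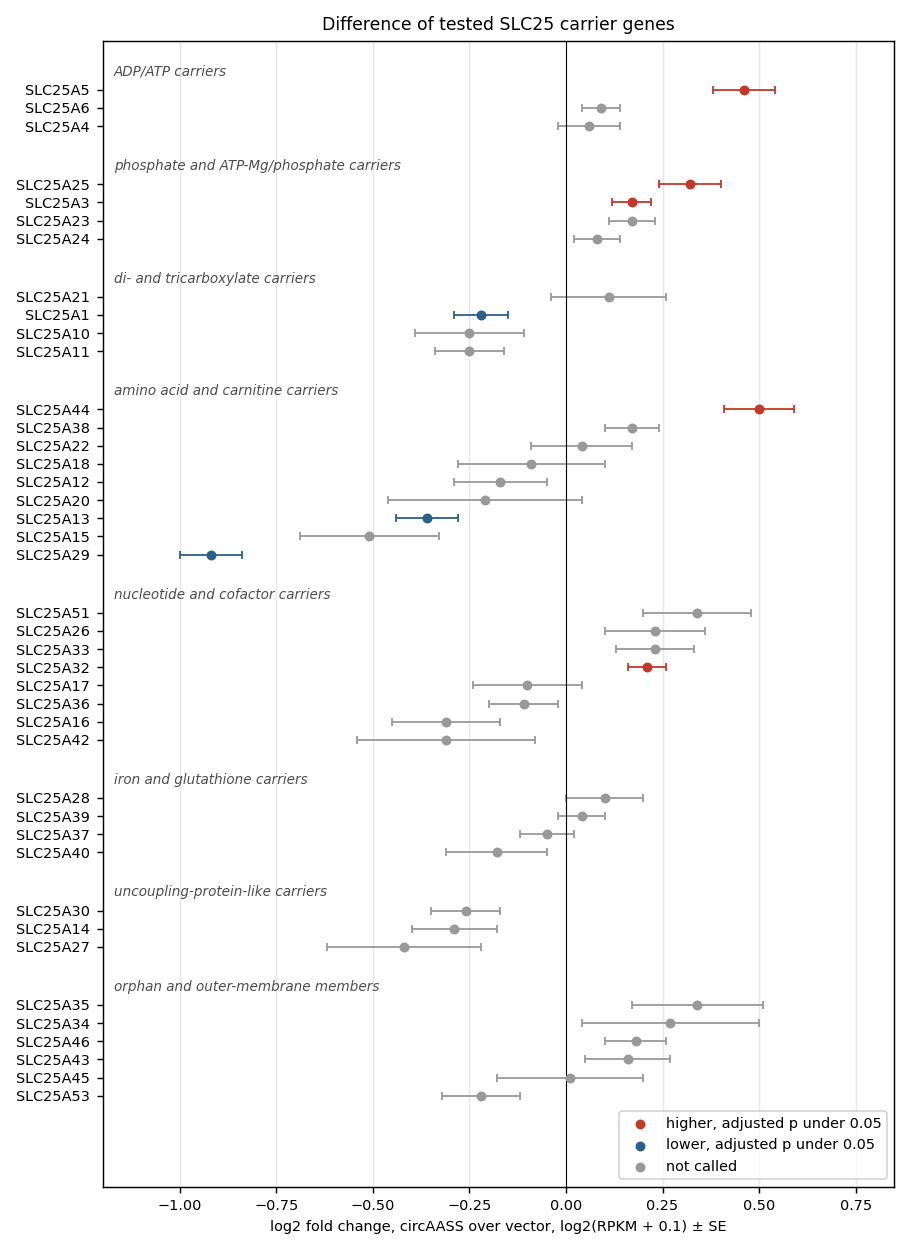
Log2 difference, circAASS over vector, of 41 tested members on the log2(RPKM + 0.1) scale after trimmed-mean scaling, grouped by role. Points are estimates and bars ± 1 SE. SLC25A29 lies farthest below 0 at -0.92 and SLC25A44 farthest above at 0.50.

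The promoters of those 4 carriers are shown because their transcripts kept their calls under every setting. Each run is 300 bases from RefSeq (GRCh38.p14), 250 before to 50 after the annotated start, read 5′ to 3′ on the gene's strand. Capitals mark matches on either strand to CCAAT (the CCAAT box), GGGCGG (the GC box) or CACGTG (the E-box). They also mark the NRF1 site (GCGCA and GCGC with any base between, bound by a regulator of mitochondrial genes) and TGATGNAA (the element bound by C/EBP and ATF factors). ACGTG, a form of the core of the hypoxia response element, is marked as well, while the form GCGTG was not searched. SLC25A29 lies at chr14:100306395-100306694 on the minus strand, SLC25A13 at chr7:96322049-96322348 on the minus strand, SLC25A5 at chrX:119468194-119468493 on the plus strand and SLC25A44 at chr1:156193854-156194153 on the plus strand.
SLC25A29: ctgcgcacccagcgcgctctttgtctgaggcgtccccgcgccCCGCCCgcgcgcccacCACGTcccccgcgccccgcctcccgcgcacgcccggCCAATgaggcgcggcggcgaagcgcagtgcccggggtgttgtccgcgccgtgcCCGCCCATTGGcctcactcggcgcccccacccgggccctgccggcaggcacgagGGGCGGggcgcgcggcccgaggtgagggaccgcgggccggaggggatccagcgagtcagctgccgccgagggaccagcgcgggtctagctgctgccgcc
SLC25A13: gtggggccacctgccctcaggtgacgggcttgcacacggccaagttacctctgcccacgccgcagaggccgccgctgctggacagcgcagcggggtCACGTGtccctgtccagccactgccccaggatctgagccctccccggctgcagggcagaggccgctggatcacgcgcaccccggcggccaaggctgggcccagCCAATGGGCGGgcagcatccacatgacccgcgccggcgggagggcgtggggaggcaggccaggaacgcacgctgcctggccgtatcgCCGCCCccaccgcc
SLC25A5: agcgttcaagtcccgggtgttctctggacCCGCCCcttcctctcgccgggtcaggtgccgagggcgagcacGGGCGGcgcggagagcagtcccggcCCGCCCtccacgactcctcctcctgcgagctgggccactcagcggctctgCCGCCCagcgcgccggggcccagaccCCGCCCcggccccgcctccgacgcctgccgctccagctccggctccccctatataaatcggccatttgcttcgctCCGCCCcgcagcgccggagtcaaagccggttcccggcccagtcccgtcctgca
SLC25A44: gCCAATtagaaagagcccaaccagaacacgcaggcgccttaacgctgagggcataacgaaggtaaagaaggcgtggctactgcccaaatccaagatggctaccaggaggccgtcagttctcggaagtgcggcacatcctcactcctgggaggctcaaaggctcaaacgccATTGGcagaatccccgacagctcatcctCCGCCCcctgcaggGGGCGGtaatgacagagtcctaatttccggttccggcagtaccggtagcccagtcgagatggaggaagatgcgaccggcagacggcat

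SLC25A29 and SLC25A13, the carriers that fell under every setting, both held a CCAAT box joined to a GC box, that is CCAAT followed by GGGCGG with no base between. In SLC25A29 it begins at -103 from the start on the opposite strand (in capitals as its reverse complement), and in SLC25A13 at -51 on the gene's strand. These positions count from the RefSeq start. GENCODE 29 begins each gene further upstream, at 100306547 in SLC25A29, 96322147 in SLC25A13, 119468400 in SLC25A5 and 156193932 in SLC25A44. The joined boxes lie at the GENCODE starts of their genes, and boxes nearer the RefSeq start lie inside the GENCODE genes. This joined form was looked for after these promoters had been read; it stands in 53 of 35116 RefSeq promoters (0.151%) and in 2 of the 38 member promoters that the table holds, namely these. Both also hold ACGTG: SLC25A29 on the opposite strand at -192, and SLC25A13 within an E-box at -154, since each CACGTG contains ACGTG on both strands. The 2 carriers that rose under every setting differed from each other in content, SLC25A5 with 6 GC boxes and no CCAAT box and SLC25A44 with CCAAT boxes at -249 and -80 and GC boxes at -52 and -38. A match is a description of letters in this window, not of a bound factor.

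Over all 38 member promoters, CCAAT stood in 19 of 38, against 34.6% of all RefSeq promoters, GGGCGG in 68.4% (26) against 45.0%, and CACGTG in 18.4% (7) against 7.26%. ACGTG, which the E-box contains, stood in 28.9% (11) against 21.4%. The NRF1 site was found in 4 member promoters (10.5% against 5.78%), among the called members in that of SLC25A3, and TGATGNAA in 1 (2.63% against 3.62%) and in no called member. The member promoters were richer in G and C, with a median GC content of 66.8% against 58.7% for all promoters; the part of base composition in these shares was not tested.

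The ADP/ATP carriers exchange cytosolic ADP for matrix ATP, and their balance shifted towards SLC25A5 in circAASS. SLC25A5 (ANT2, the form associated with proliferating cells) was at 30.1, 37.1 and 34.5 RPKM in circAASS and 24.5, 26.6 and 26.8 RPKM in vector. The lowest circAASS library lay above the highest vector library, and the log2 difference was 0.46 (SE 0.08, adjusted p = 0.00417). SLC25A6 (ANT3, broadly expressed) was at 40.4, 45.6 and 45.2 RPKM in circAASS and 42.4, 43.8 and 43.3 RPKM in vector, where the groups overlapped (log2 difference 0.09, SE 0.05, adjusted p = 0.204). SLC25A4 (ANT1, the heart and muscle form) was at 3.67, 3.88 and 3.73 RPKM in circAASS and 4.17, 3.47 and 3.82 RPKM in vector, again overlapping (0.06, SE 0.08, adjusted p = 0.634). SLC25A31, the form of male germ cells, was listed at 0 in all circAASS libraries and in vector libraries 2 and 3, with 10 reads (0.120 RPKM) in vector library 1, and was not tested.

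Summed over SLC25A4, SLC25A5 and SLC25A6, ADP/ATP carrier transcripts reached 74.2, 86.6 and 83.4 RPKM in circAASS and 71.1, 73.9 and 73.9 RPKM in vector. SLC25A5 made up 40.6%, 42.9% and 41.4% of that sum in circAASS and 34.5%, 36.0% and 36.2% in vector, while SLC25A6 made up 54.5%, 52.7% and 54.2% in circAASS and 59.6%, 59.3% and 58.6% in vector. These shares do not depend on how libraries are scaled. The log2 ratio of SLC25A5 to SLC25A6 was -0.43, -0.30 and -0.39 in circAASS and -0.79, -0.72 and -0.69 in vector, a difference of 0.36. Its exact two-sided permutation p was 0.10, the smallest that 3 against 3 allows. As SLC25A5 had already been called in these same libraries, the ratio is a description and adds no separate test. SLC25A5 lies on chromosome X at 119468400 to 119471319 (GRCh38, GENCODE 29, plus strand). Of its exon bases, 15.1% are covered by the antisense gene SLC25A5-AS1, which was at 4.77, 5.79 and 5.29 RPKM in circAASS and 3.90, 4.23 and 4.14 RPKM in vector (0.43, SE 0.08, adjusted p = 0.00660). Whether the counting used strand is not given in the sources used here, and reads of the overlapping part cannot be told apart. SLC25A6 has an identical copy in the pseudoautosomal region of the other sex chromosome, and SLC25A5 and SLC25A6 have processed pseudogenes, of which the table lists 6, none above 0.123 RPKM; reads that match several copies may have been counted for another copy or left out.

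**Figure D3:**
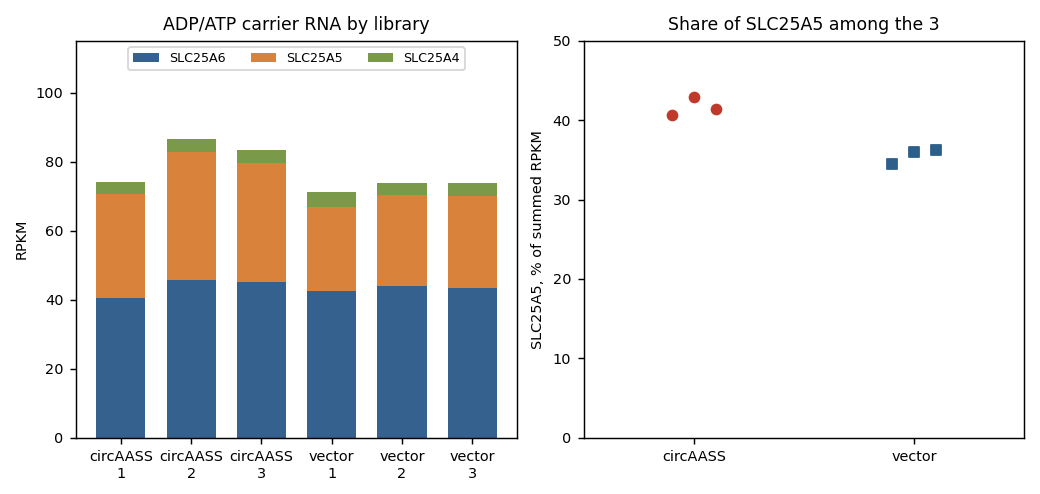
Left, RPKM of SLC25A4, SLC25A5 and SLC25A6 in each library, stacked from 0; right, the percent of that sum held by SLC25A5, with 1 point per library; circAASS stands left of vector in both. SLC25A5 takes 40.6% to 42.9% of the sum in circAASS and 34.5% to 36.2% in vector.

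Among the carriers of phosphate and of ATP-Mg, 2 of 4 tested members rose (median log2 difference 0.17). SLC25A3 imports the phosphate used by ATP synthase and also carries copper. It was at 19.5, 20.9 and 21.5 RPKM in circAASS and 19.4, 18.5 and 20 RPKM in vector; the deposited values overlapped, and after scaling the log2 difference was 0.17 (SE 0.05, adjusted p = 0.0309). The call was lost under 9 of 14 settings: adjusted p was 0.230 with library size alone, 0.0702 and 0.0865 without circAASS library 2 or 3, and 0.0626, 0.116 and 0.0671 without vector library 1, 2 or 3. SLC25A23, SLC25A24 and SLC25A25 exchange ATP-Mg for phosphate under control of cytosolic calcium and so set the matrix pool of adenine nucleotides. SLC25A25 (chromosome 9, 128068201 to 128109245, plus strand) was at 4.93, 4.72 and 5.17 RPKM in circAASS and 3.77, 4.25 and 4.51 RPKM in vector. All circAASS libraries lay above all vector libraries (0.32, SE 0.08, adjusted p = 0.0175); adjusted p was 0.0637 with library size alone and 0.0570 without circAASS library 3. SLC25A23 averaged 7.85 ± 0.318 RPKM in circAASS and 7.36 ± 0.134 in vector (SD, n = 3 each), and SLC25A24 averaged 8.32 ± 0.635 RPKM in circAASS and 8.32 ± 0.213 in vector; neither was called. The log2 ratio of SLC25A25 to SLC25A24 was -0.63, -0.85 and -0.77 in circAASS and -1.18, -0.95 and -0.86 in vector (difference 0.25, given as a description). SLC25A41, the calcium-independent relative 2.3 kb from SLC25A23 on chromosome 19, had at most 0.0713 RPKM in any library and was not tested.

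Among 4 tested carriers of di- and tricarboxylates 1 was called lower and none higher (median log2 difference -0.24; 15.9% of all tested genes were lower). SLC25A1 exports citrate, the source of cytosolic acetyl-CoA for fatty acid and sterol synthesis. It was at 9.45, 8.22 and 9.02 RPKM in circAASS and 11.1, 10.3 and 11.4 RPKM in vector. The groups did not overlap, yet the call stood just under the threshold (-0.22, SE 0.07, adjusted p = 0.0491). It held under 6 of 14 settings and was lost without circAASS library 2 or 3 (0.117 and 0.116), without vector library 1, 2 or 3 (0.129, 0.0656 and 0.135), and with median-of-ratios scaling (0.0525). SLC25A11, the oxoglutarate/malate arm of the malate-aspartate shuttle, averaged 4.57 ± 0.326 RPKM in circAASS and 5.78 ± 0.667 in vector (-0.25, adjusted p = 0.0573). It passed the threshold under 5 of 14 settings. These were library size alone (0.0356), a mean of at least 1 RPKM (0.0490), the replicate block (0.0459), voom on recovered reads (0.0300) and the fit without vector library 1 (0.0489). SLC25A10, which exchanges malate or succinate for phosphate, averaged 1.62 ± 0.251 RPKM in circAASS and 2.04 ± 0.177 in vector (-0.25, adjusted p = 0.207), with 46.6% of its exon bases covered by other genes. SLC25A21 carries oxoadipate, an intermediate of the lysine breakdown that the enzyme AASS begins; it was at 0.173 ± 0.0118 RPKM in circAASS and 0.162 ± 0.0119 RPKM in vector (SD, n = 3 each; 0.11, adjusted p = 0.596).

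Of 9 tested amino acid and carnitine carriers, 2 fell, 1 rose and 6 were not called, and the median log2 difference was -0.17. The share called was 33.3%, close to the 32.3% of all tested genes. SLC25A29, a carrier of basic amino acids such as arginine and lysine, was at 1.79, 1.87 and 2.00 RPKM in circAASS and 3.52, 3.84 and 4.24 RPKM in vector. Every circAASS library lay well below every vector library, on 639 to 809 reads in circAASS and 1185 to 1658 in vector. The log2 difference was -0.92 (SE 0.08, adjusted p = 0.000511), and the call held under all 14 settings. Its gene spans chromosome 14, 100291111 to 100306547, on the minus strand. SLC25A47, 16.8 kb away and known as a liver gene, was at most at 0.0232 RPKM and was not tested.

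SLC25A44 carries branched-chain amino acids, a role shown in mouse brown fat. It was at 3.96, 3.56 and 4.37 RPKM in circAASS and 2.68, 2.94 and 3.15 RPKM in vector, with no overlap (0.50, SE 0.09, adjusted p = 0.00611, called under all 14 settings). The log2 ratio of SLC25A29 to SLC25A44 was therefore negative in circAASS (-1.15, -0.93 and -1.13) and positive in vector (0.39, 0.39 and 0.43). Vector cells had more SLC25A29 than SLC25A44 transcript per length, and circAASS cells had less, a difference of -1.47. This pair was chosen for its changes, so the ratio is a description with no test.

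SLC25A13 (citrin) and SLC25A12 (aralar) exchange matrix aspartate for cytosolic glutamate in the malate-aspartate shuttle. SLC25A13 (chromosome 7, 96120220 to 96322147, minus strand) was at 6.46, 7.22 and 7.95 RPKM in circAASS and 9.88, 10.1 and 9.22 RPKM in vector. No circAASS library reached the lowest vector library (-0.36, SE 0.08, adjusted p = 0.0124), and the call held under all 14 settings, with adjusted p highest at 0.0494 without vector library 2. SLC25A12 averaged 1.33 ± 0.140 RPKM in circAASS and 1.58 ± 0.129 in vector (SD, n = 3 each) and was not called (-0.17, adjusted p = 0.324). The sum of the pair was 7.91, 8.57 and 9.12 RPKM in circAASS and 11.3, 11.8 and 10.9 RPKM in vector. Citrin made up 84.3 ± 2.74% of it in circAASS and 86.0 ± 1.26% in vector. The log2 ratio of SLC25A13 to SLC25A12 overlapped between the groups (difference -0.18, exact two-sided permutation p = 0.400). As 3 against 3 libraries allow no p under 0.10, this ratio is a description and decides nothing.

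The other amino acid carriers were not called. SLC25A15, the ornithine/citrulline exchanger of the urea cycle, averaged 0.937 ± 0.218 RPKM in circAASS and 1.43 ± 0.133 in vector (-0.51, SE 0.18, adjusted p = 0.0630). It passed the threshold under 4 of 14 settings. These were library size alone (0.0335), the replicate block (0.0496), voom on recovered reads (0.0449) and the fit without circAASS library 1 (0.0188). SLC25A38, which imports glycine for haem synthesis, averaged 8.19 ± 0.792 RPKM in circAASS and 7.65 ± 0.317 in vector (0.17, adjusted p = 0.0913). The carnitine/acylcarnitine carrier SLC25A20 was at 0.397 ± 0.120 RPKM in circAASS and 0.496 ± 0.125 in vector (-0.21, adjusted p = 0.557). Of the glutamate carriers, SLC25A22 was at 0.590 ± 0.0351 RPKM in circAASS and 0.605 ± 0.0251 in vector, and SLC25A18 was under 0.1 RPKM in all 6 libraries. SLC25A2, a second ornithine carrier, was listed at 0 in circAASS and at 0 to 0.0553 RPKM in vector and was not tested.

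**Figure D4:**
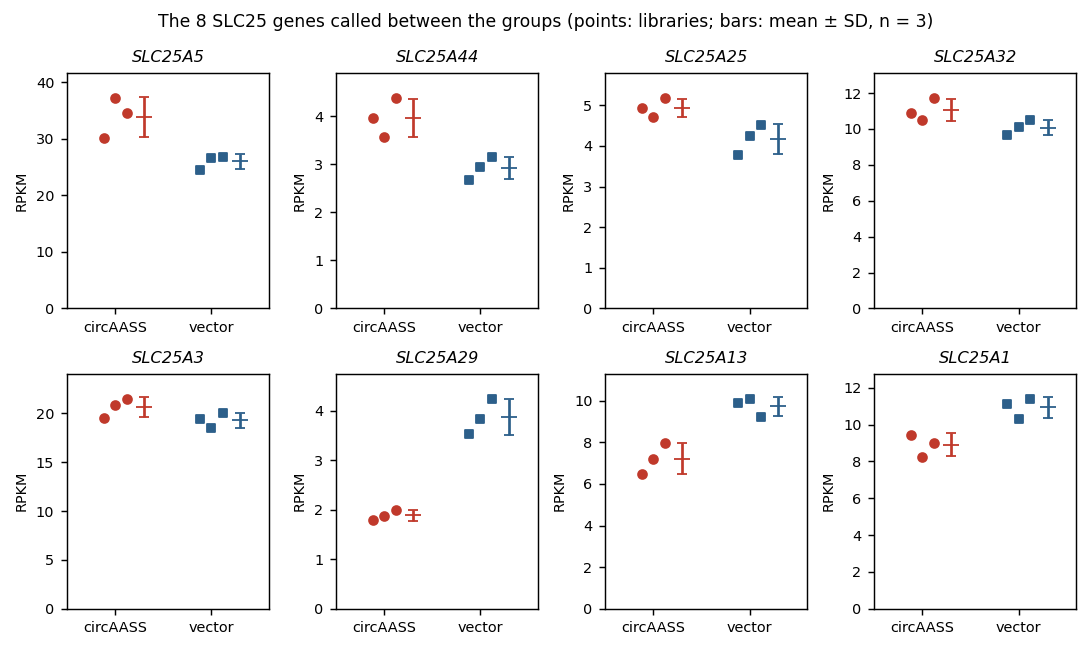
RPKM per library of the 8 called carriers, circAASS left and vector right in each panel, with the mean and SD of 3 libraries; every axis starts at 0. The groups are apart in all panels but that of SLC25A3, narrowly so in that of SLC25A32. Of all 19409 tested genes, 3318 were higher and 5876 lower in circAASS without overlap.

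Among 9 tested nucleotide and cofactor carriers 1 rose and none fell (median log2 difference 0.10), that is 11.1% called against 32.3% of all tested genes. SLC25A32, which supplies the mitochondrion with folate and FAD, was at 10.9, 10.5 and 11.7 RPKM in circAASS and 9.64, 10.1 and 10.5 RPKM in vector. The groups met within rounding at 10.5 RPKM, and the difference was small (0.21, SE 0.05, adjusted p = 0.0228). The call was lost with library size alone (0.144), without circAASS library 1 or 3 (0.0518 and 0.0728) and without vector library 1 or 2 (0.0716 and 0.0694). Other genes cover 80.8% of its exon bases, so its reads are uncertain. The NAD+ carrier SLC25A51 averaged 1.03 ± 0.122 RPKM in circAASS and 0.836 ± 0.0727 in vector (0.34, adjusted p = 0.0976). The pyrimidine nucleotide carriers SLC25A33 (2.50 ± 0.204 RPKM in circAASS and 2.23 ± 0.0972 in vector) and SLC25A36 (5.30 ± 0.477 RPKM in circAASS and 6.03 ± 0.471 in vector) had log2 differences of opposite sign, 0.23 and -0.11, and neither was called. SLC25A26 (S-adenosylmethionine), SLC25A17 (a peroxisomal carrier of CoA and related cofactors), SLC25A16 and the CoA carrier SLC25A42 had log2 differences of -0.31 to 0.23. Of these, SLC25A16 (adjusted p = 0.123) was called lower without an intensity trend (0.0383) and with voom on recovered reads (0.0426).

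The iron and glutathione carriers showed no call among 4 tested, where 32.3% of all tested genes were called. Their median log2 difference was -0.01. Mitoferrin 1 (SLC25A37) averaged 6.93 ± 0.140 RPKM in circAASS and 7.61 ± 0.590 in vector, and mitoferrin 2 (SLC25A28) averaged 4.88 ± 0.0573 RPKM in circAASS and 4.84 ± 0.616 in vector. The glutathione carrier SLC25A39 averaged 4.78 ± 0.251 RPKM in circAASS and 4.89 ± 0.109 in vector, and its relative SLC25A40 averaged 1.07 ± 0.134 RPKM in circAASS and 1.28 ± 0.111 in vector. Their estimates ran from -0.18 to 0.10.

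Uncoupling-protein-like carriers had no call among 3 tested, where 32.3% of all tested genes were called, and each estimate was negative. SLC25A27 (UCP4) averaged 0.751 ± 0.123 RPKM in circAASS and 1.11 ± 0.252 in vector (-0.42, adjusted p = 0.141) and passed the threshold without vector library 3 (0.0417). SLC25A14 (UCP5) averaged 1.08 ± 0.0735 RPKM in circAASS and 1.42 ± 0.121 in vector (-0.29, adjusted p = 0.0845). SLC25A30, described as a kidney carrier, averaged 2.19 ± 0.155 RPKM in circAASS and 2.80 ± 0.226 in vector (-0.26, adjusted p = 0.0634).

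Orphan and outer-membrane members gave no call among 6 tested (median log2 difference 0.17), where 32.3% of all tested genes were called. SLC25A46, an outer-membrane protein tied to mitochondrial shape, averaged 2.62 ± 0.203 RPKM in circAASS and 2.43 ± 0.114 in vector (0.18, adjusted p = 0.126). SLC25A43, 13.9 kb from SLC25A5 on chromosome X, averaged 1.95 ± 0.198 RPKM in circAASS and 1.83 ± 0.258 in vector (0.16, adjusted p = 0.315). SLC25A35, with 33.2% of its exon bases covered by other genes, averaged 1.29 ± 0.265 RPKM in circAASS and 1.03 ± 0.0338 in vector (0.34, adjusted p = 0.156), and it passed the threshold without circAASS library 3 (0.0210). SLC25A53 averaged 1.17 ± 0.0466 RPKM in circAASS and 1.46 ± 0.0699 in vector (-0.22, adjusted p = 0.130), and SLC25A34 and SLC25A45 stayed under 0.13 RPKM in every library.

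**Figure D5:**
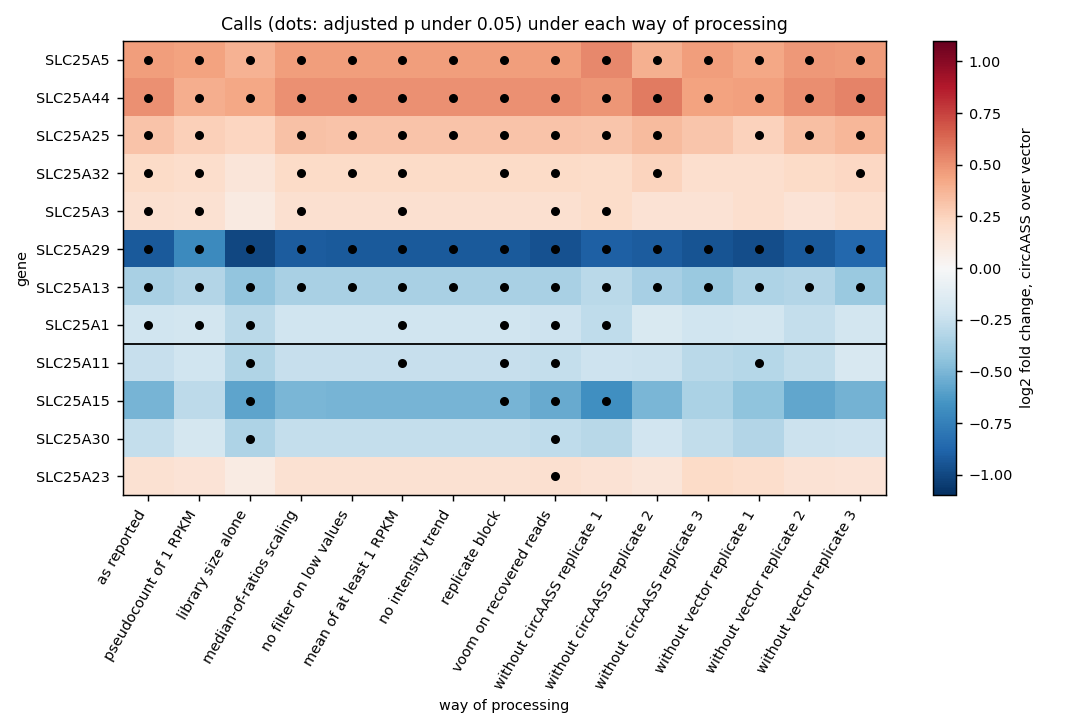
Log2 difference, circAASS over vector, of the 8 called carriers (above the line) and of SLC25A11, SLC25A15, SLC25A30 and SLC25A23, the uncalled members of lowest adjusted p, as reported and under 14 other settings. Colour gives the size and a dot an adjusted p under 0.05; SLC25A29, SLC25A13, SLC25A5 and SLC25A44 have a dot in every column.

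Genes around the carriers were read from the same fit. Of 4 tested family members that go by other names, 2 rose and none fell (median log2 difference 0.11), whereas 32.3% of all tested genes were called. UCP3, an uncoupling protein best known from muscle, was at 0.828 ± 0.174 RPKM in circAASS and 0.464 ± 0.0751 in vector (SD, n = 3 each; 0.77, adjusted p = 0.0174; 0.0538, 0.0598 and 0.0562 without circAASS library 2, circAASS library 3 or vector library 3). With a pseudocount of 1 RPKM its log2 difference was 0.35. MTCH1, an outer-membrane relative, was at 22.1 ± 0.653 RPKM in circAASS and 20.1 ± 0.400 in vector (0.22, adjusted p = 0.0144; 0.0611 with library size alone and 0.0575 without vector library 3). UCP2 was at 2.61 ± 0.216 RPKM in circAASS and 3.34 ± 0.232 in vector and was not called (adjusted p = 0.0645), nor was MTCH2 (0.938). UCP2 was called lower without circAASS library 1 (0.0287), with library size alone (0.0256) and with voom on recovered reads (0.0369).

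Metabolites reach the carriers through channels of the outer membrane and share the inner membrane with other transporters; of 14 such genes, 4 rose and none fell (28.6% called, against 32.3% of all tested genes; median 0.11). With library size alone, SFXN3 (adjusted p = 0.0123) and SFXN4 (0.0328), sideroflexins named after their values were seen, were called lower. MPC2, a subunit of the mitochondrial pyruvate carrier, was at 14.7 ± 0.164 RPKM in circAASS and 13.2 ± 0.133 in vector (0.24, adjusted p = 0.00828), with 22.5% of its exon bases covered by other genes. The outer-membrane channel VDAC2 was at 40.3 ± 3.04 RPKM in circAASS and 36.3 ± 1.06 in vector (adjusted p = 0.0254), and VDAC1 at 44.1 ± 2.60 RPKM in circAASS and 41.4 ± 1.69 in vector (0.0471). The porphyrin transporter ABCB6 was at 1.32 ± 0.0135 RPKM in circAASS and 1.00 ± 0.177 in vector (0.0432), with 54.7% of its exon bases covered by other genes. VDAC2, VDAC1 and ABCB6 lost their calls with library size alone (0.113, 0.296 and 0.0725). VDAC2 also lost it without circAASS library 3 or any 1 vector library (0.0529 to 0.0922), VDAC1 without circAASS library 2 or 3 or any 1 vector library (0.0776 to 0.135), and ABCB6 when any 1 circAASS library or vector library 2 or 3 was left out (0.0905 to 0.127). In the list around the calcium uniporter, 1 of 8 genes rose and none fell (12.5% called, against 32.3% of all tested genes). LETM1, a cation exchanger of the inner membrane, was at 9.61 ± 0.192 RPKM in circAASS and 8.03 ± 0.299 in vector (0.34, adjusted p = 0.00479), called under all 14 settings. The pore subunit MCU was at 8.72 ± 0.263 RPKM in circAASS and 8.08 ± 0.396 in vector (adjusted p = 0.0613). It was called higher without vector library 1 (0.0451) and with voom on recovered reads (0.0283).

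Of 13 genes of the machinery that imports the carriers, 2 rose and 2 fell (median 0.06), that is 30.8% called against 32.3% of all tested genes. TIMM13, a chaperone of the intermembrane space, was at 16.8 ± 2.30 RPKM in circAASS and 12.7 ± 1.79 in vector (0.48, adjusted p = 0.0149; 0.0552 without vector library 2), and the pore protein TOMM40 was at 15.8 ± 1.05 RPKM in circAASS and 13.8 ± 0.988 in vector (adjusted p = 0.0353; 0.0656 to 0.112 without circAASS library 1 or 2 or vector library 2 or 3). AGK, a subunit of the TIM22 translocase that inserts carriers, was at 1.88 ± 0.189 RPKM in circAASS and 2.53 ± 0.202 in vector (-0.33, adjusted p = 0.0408; 0.0518 to 0.126 without circAASS library 1 or 3 or any 1 vector library). TIMM8B was at 13.7 ± 0.585 RPKM in circAASS and 16.8 ± 1.15 in vector (-0.22, adjusted p = 0.0424; 0.0645 to 0.132 without circAASS library 2 or 3 or any 1 vector library). Exon bases shared with other genes came to 28.9% in TIMM13 and 32.3% in TIMM8B.

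Of 13 enzymes of the shuttles that the carriers serve, 3 rose and 3 fell (median 0.04), that is 46.2% called against 32.3% of all tested genes. CPT2, which reforms acyl-CoA behind the carnitine carrier, was at 0.205, 0.273 and 0.206 RPKM in circAASS and 0.733, 0.696 and 0.556 RPKM in vector (-1.15, SE 0.18, adjusted p = 0.00322). With a pseudocount of 1 RPKM its log2 difference was -0.41. SLC25A20, its partner in the carnitine shuttle, was not called. GPD2, the mitochondrial enzyme of the glycerol phosphate shuttle, was at 1.05 ± 0.0986 RPKM in circAASS and 1.63 ± 0.0785 in vector (SD, n = 3 each; -0.52, adjusted p = 0.010). Carnitine acetyltransferase (CRAT) was at 2.88 ± 0.139 RPKM in circAASS and 3.92 ± 0.286 in vector (-0.35, adjusted p = 0.0170; 0.0560, 0.0653 and 0.0533 without circAASS library 3, vector library 2 or vector library 3). GOT1, the cytosolic transaminase of the malate-aspartate shuttle, was at 9.44 ± 1.21 RPKM in circAASS and 7.67 ± 0.10 in vector (0.36, adjusted p = 0.0170; 0.0547 without circAASS library 3 and 0.0515 without vector library 3), a rise beside the fall of citrin in the same shuttle. Over the 5 lists together, 12 genes were higher and 5 lower, against 4 higher and 8 lower with library size alone. The 17 called among 52 tested are 32.7%, close to the 32.3% of all tested genes.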

How the data were processed

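RNA of 6 HK-2 libraries (3 circAASS, 3 vector) was sequenced as read pairs with a stranded mRNA kit, per the labels' protocols. The deposited values are RPKM made by the authors. The submitters' processing notes name Trimmomatic 0.36, featureCounts, Subread 1.5.1, edgeR 3.12.1 and GRCh38; the aligner, annotation and use of strand: not given in the sources used here. Groups came from sample titles, and no column was left unmatched.

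Reads were worked out from RPKM with GENCODE 29 exon lengths: values were whole within 0.02 reads for 22411 of 24724 genes (90.6%), and a length was found from the values for 12596 others (3 members: SLC25A24, SLC25A36 and SLC25A38). They gave 99.72% to 99.74% of the totals and served for the filter (10 or more reads, scaled to the median library size, in 3 libraries, and 15 in all) and for trimmed-mean factors, 0.9544 to 0.9958 in circAASS and 1.0165 to 1.0434 in vector. Date-like names (28) were left out.

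limma 3.58.1 (R 4.3.3, trend, robust, checked on simulated data) tested log2(RPKM + 0.1), with RPKM divided by the trimmed-mean factors. Group was the sole term, and p-values are two-sided. Members and lists were chosen with earlier results of these data known. Values per library are given for called members, the 5 of highest RPKM and the ADP/ATP carriers. Other lists name at most 4 genes, those of smallest p. The 14 alternatives vary scaling, pseudocount, filter, trend, block, voom on recovered reads, and leave out each library. RefSeq promoters matched 38 members. SLC25A48 and SLC25A52 were not analysed here, and 1 tested member enters the counts but is not reported here.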

Additional observations from a re-analysis of the deposited data

How the results depend on the processing

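The 42 tested members gave 5 higher and 3 lower calls as reported. With library size alone there were 2 higher and 7 lower, without an intensity trend 3 higher, with the replicate block 5 lower, and with voom on recovered reads 7 lower. Leaving out 1 library gave 3 to 4 higher and 2 to 4 lower members, and over all genes 2147 to 2825 higher and 1976 to 2836 lower, with the fewest without vector library 2. The 5 lists around the carriers gave 4 higher and 8 lower calls with library size alone, 6 and 3 with no filter, and 3 to 11 and 2 to 6 with a library left out. Of 563 alternative values of the 41 members shown, 507 kept direction and side of the threshold, 25 lost a call, 17 gained one and 14 changed sign. Only called members can lose a call, so the 25 are to be read against the 112 values of called members. All 25 were in SLC25A1, SLC25A3, SLC25A25 and SLC25A32. The sign changes were all in members that were not called: with library size alone SLC25A22 (-0.0318), SLC25A24 (-0.0010), SLC25A39 (-0.0343), SLC25A4 (-0.0188), SLC25A45 (-0.0134) and, outside the members, MTCH2 (-0.0632); with a library left out SLC25A18 (-0.2210 to 0.0307), SLC25A20 (-0.3854 to 0.0091), SLC25A22 (-0.0155 to 0.0835), SLC25A28 (-0.0091 to 0.1627), SLC25A37 (-0.0980 to 0.0140), SLC25A4 (-0.0050 to 0.1291), SLC25A45 (-0.1193 to 0.1484) and MTCH2 (-0.0770 to 0.0902). Apart from fits with fewer samples, the cause was not tested. Same-numbered libraries did not deviate together (correlations -0.008, -0.023 and 0.023), so the repeat numbers were not taken as pairing; the block lowered the calls over all genes to 2795 higher and 2630 lower, against 3171 and 3091. SLC25A2, SLC25A31, SLC25A41 and SLC25A47 had too few reads for the filter and were not tested.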
